A study of Saccharomyces cerevisiae with 4 samples.

Results

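Tagged deletion strains of the yeast Saccharomyces cerevisiae were compared between a cdc102-1 plasmid and a wild-type CDC102 plasmid at 30 degree, on 1 two-colour tag array each, which are 2 of the 4 arrays of a screen for synthetic lethality. The 2 arrays were chosen by their titles. Per the labels, the starting material for both was a pool of 5896 diploid strains, each heterozygous for 1 gene deletion and convertible to haploids, in which chromosomal CDC102 had been replaced by natMX (cdc102D::natMX). The pool then received a centromere plasmid with URA3 and either allele. Spores were plated without uracil (MM-Ura, Cy5), which recovers single and double mutants, and without uracil but with the drug Nat (MM-Ura+Nat, Cy3), which recovers double mutants, and colonies were harvested after 2 days. Every double mutant on both arrays therefore carried the natMX disruption and lived on a plasmid copy of the gene. The description of the wild-type sample also calls its sporulated pool cdc102-1, and the title was followed. The other 2 arrays hold the same pair of plasmids at 28 degree and serve here as a separate pair with which the differences at 30 degree are set side by side. No pair has a replicate, so no test is possible, and every difference below is between 1 array and 1 array.

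CDC102 is a synonym of PSF2 (YJL072C, on chromosome X), the gene of 1 subunit of GINS. GINS joins the Mcm2-7 ring and Cdc45 to form the helicase that unwinds DNA at replication forks, and it is essential for initiation and elongation. In a synthetic lethality screen a second deletion is called interacting when the haploid that carries both lesions is recovered less well than the haploid with 1 of them, and each strain is counted through a pair of short DNA tags in its deletion cassette.

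The deposited value of a spot is the log2 ratio of both dyes. The labels do not say which dye is the numerator. With Cy5 as numerator, which is likely because the Cy5 pool is listed first, a higher ratio would stand for relatively fewer double mutants, and values are therefore given only as higher or lower ratios. Spots were averaged for each strain, and the median over strains was subtracted from each array, so that 0 is the median strain. The term "difference" below is the centred ratio with cdc102-1 minus that with CDC102, on the log2 scale. A strain was counted when its difference was at least 1, which is a size and not a test.

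The array of cdc102-1 at 30 degree had the widest spread and the most empty spots of the series. The SD over strains was 1.03 on it and 0.77 on the CDC102 array at 30 degree, against 0.73 and 0.65 at 28 degree. Among 18794 spots with a gene name, 725 had no value with cdc102-1 and 396 with CDC102, against 16 and 63 at 28 degree. Both arrays at 30 degree gave a value for 5288 of 5325 strains, and both tags of the strain for 4854. Of the remaining 434 strains, 71 had the same single tag on both arrays. In 363 the tags measured differed between the arrays, so that the mean sets different tags against each other, and 72 of the higher and 94 of the lower strains by the strain mean are of this kind. The ratios of the pair at 30 degree correlated across strains with a Pearson r of 0.602 and a Spearman rho of 0.619, a description over strains that share both libraries. No spot intensities were used, so the signal over background is unknown, and having only 1 array per group limits the precision of all values.

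At 30 degree the deletions higher with cdc102-1 and those lower with it were about equally many by the strain mean, and those higher were more numerous when each tag was read, in the centring used here. The difference had a median of 0.02 and an SD of 0.84, with 5% of strains below -1.39 and as many above 1.28. Of 5288 strains, 2738 were above 0 and 2550 below. A strain difference of at least 1 was found for 411 of 5288 strains higher (7.77%) and 419 lower (7.92%). When each tag had to pass the size by itself, 161 of 4854 strains were higher (3.32%) and 116 lower (2.39%). Both balances moved with the scaling. With the arrays given an equal median absolute deviation, 467 strains were higher and 320 lower by the mean, and 154 and 79 in each tag. Without centring 366 were higher and 458 lower by the mean, and 141 and 137 in each tag. The strains nearest the size were ALG6 and ROG1, both at 1.00 and counted, and CDC50 and SLP1, at 0.997 and 0.996 and not counted. On the lower side RTC2 and SAM3, just past the size, were counted and GRX6 and NAT2 (both -0.998) were not.

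**Figure D1:**
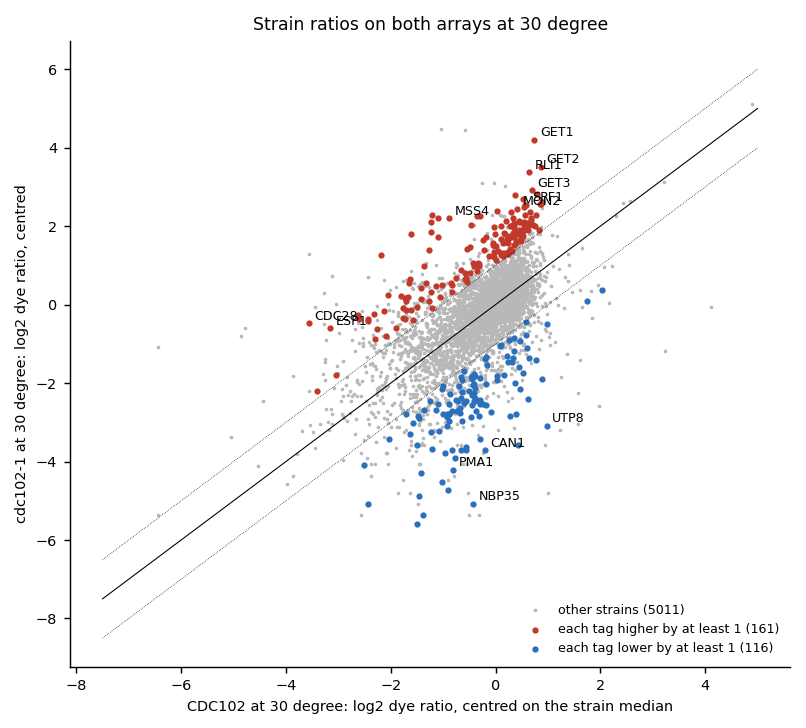
Each point is a deletion strain, with its centred log2 dye ratio on the CDC102 array (x axis) and on the cdc102-1 array (y axis) at 30 degree. Red marks the 161 strains higher by at least 1 in each tag and blue the 116 lower; the solid line is equality and the dotted lines lie 1 above and below it. GET1, GET2 and GET3 stand at 4.20, 3.51 and 2.91 with cdc102-1 and below 1 with CDC102.

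The agreement of both tags is the only internal check of these values. Across the 4854 strains the differences in the first and in the second tag correlated with a Pearson r of 0.277 and a Spearman rho of 0.409, as a description over strains that share both libraries. The correlation was r = 0.455 and rho = 0.518 over the 792 strains with 6 or more spots per tag and r = 0.250 and rho = 0.387 over the 4062 strains with fewer. Among strains with many spots 52 were higher in each tag (6.57%) and 8 lower (1.01%), and among strains with fewer spots 109 were higher (2.68%) and 108 lower (2.66%). Large mean differences can rest on 1 tag. Of the 5 such strains named here, RPN2, a proteasome subunit, had the widest gap between tags, 1.01 in the first and -8.66 in the second, with a mean of -3.82. MRPL32, a mitochondrial ribosomal protein, was at 0.13 and -5.86, PSP2 at 0.29 and -5.55, RRS1, of ribosome assembly, at -5.71 and 0.29, and ILT1 at -0.14 and 5.85. For these 5 strains the mean difference describes neither tag.

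**Figure D2:**
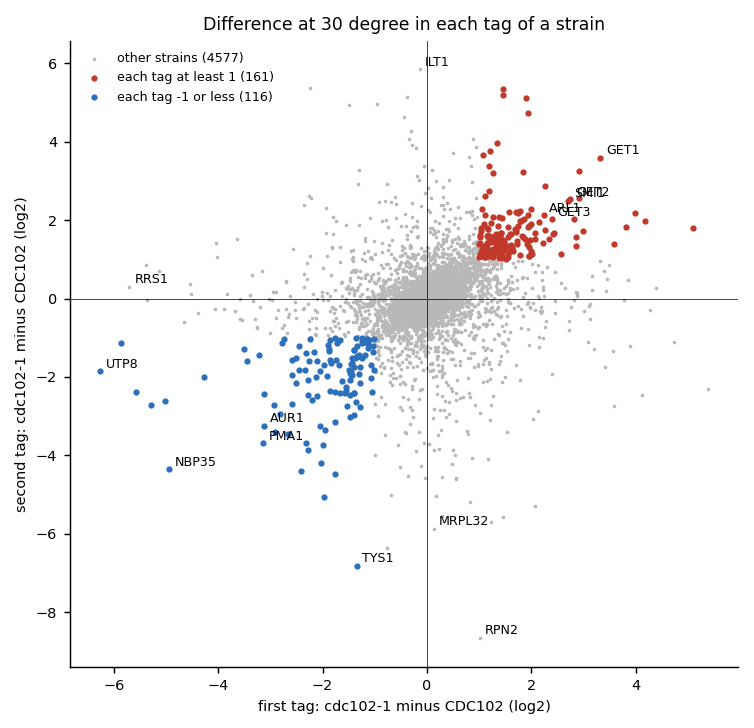
The difference between cdc102-1 and CDC102 at 30 degree in the first tag (x axis) and the second tag (y axis) of 4854 strains, on the log2 scale. Strains past 1 in each tag are red (161) or blue (116); MRPL32, ILT1 and RRS1 lie near an axis, with 1 tag far from 0 and the other close to it, RPN2 has tags past 1 in opposite directions, and GET1 and PMA1 lie near the diagonal.

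The 161 higher strains were also read on each array separately. In 109 of them the deletion stood at 1 or more on the cdc102-1 array, with a median of 1.84 there and 0.33 on the CDC102 array. In 46 of the 161 the CDC102 ratio was -1 or less, with a median of -1.70, and the cdc102-1 ratio lay at a median of 0.09, close to the typical strain. These groups overlap in 8 strains, which met both conditions, and 14 strains met neither. At 28 degree, 92 of the 101 strains that met only the first condition had the same sign (91.1%), 28 were past 1 in the same direction (27.7%) and 1 in the opposite one (0.99%). Of the 38 that met only the second, 22 had the same sign (57.9%), 7 were past 1 in the same direction (18.4%) and 3 in the opposite one (7.89%). Of the 8 that met both, 4 had the same sign, 1 was past 1 in the same direction and 2 in the opposite one. Of the 14 that met neither, 12 had the same sign (85.7%), 2 were past 1 in the same direction and 0 in the opposite one. Over all 161, 130 had the same sign (80.7%), 38 were past 1 in the same direction (23.6%) and 6 in the opposite one (3.73%). For comparison, 50.8% of all 5288 strains were above 0 at 28 degree, and 3.96% of the 5325 measured there were higher by at least 1 and 2.99% lower. Of the 116 lower strains, 108 had a cdc102-1 ratio of -1 or less. At 28 degree 69 of the 116 had the same sign (59.5%), 16 were past 1 in the same direction (13.8%) and 12 in the opposite one (10.3%).

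The largest differences among strains past 1 in each tag and over 100 kb from CDC102, began with genes of iron control, membrane insertion and bud growth. AFT1, the activator of the iron regulon, had ratios of 2.28 with cdc102-1 and -1.22 with CDC102, a difference of 3.50, but its tags gave 1.89 and 5.11, and its difference at 28 degree was -0.11. GET1 followed at 3.46 and is described with its pathway below. RUP1, a regulator of the ubiquitin ligase Rsp5, was at 1.26 and -2.19, a difference of 3.45, with 1.81 in the second tag and more in the first. BUD14, a regulator of the phosphatase Glc7 in polarised growth, was at 1.79 and -1.61 (difference 3.40, tags 1.46 and 5.34), and YLF2 at 2.10 and -1.23 (difference 3.33, tags 1.46 and 5.20). In AFT1, RUP1, BUD14 and YLF2 alike, one tag stood far above the other, the CDC102 ratio was below -1, and the difference at 28 degree lay between -1.43 and 0.22.

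Several of the highest strains lack essential genes, for which living haploids are not expected on either plate. EFB1, an elongation factor of translation, had ratios of 2.22 and -1.11 (difference 3.32, tags 1.93 and 4.72). CDC28, the cyclin-dependent kinase, stood below the median on both arrays, at -0.48 and -3.57 (difference 3.09, tags 3.99 and 2.18), and so did ESP1, the separase of sister chromatids, at -0.61 and -3.15 (difference 2.54, tags 1.85 and 3.24). MSS4, the phosphatidylinositol-4-phosphate 5-kinase, was at 2.20 and -0.89, a difference of 3.09 with close tags (2.92 and 3.26). RLI1, of ribosome recycling, was above the median on both arrays, at 3.37 and 0.63, with a difference of 2.74 and tags at 2.92 and 2.55. The other named strains lack RPA14, a subunit of RNA polymerase I (3.08, with tags at 4.18 and 1.98 over 12 spots), PGI1, phosphoglucose isomerase (2.83, with tags at 3.82 and 1.83), RIC1 (2.65), GET2 (2.64), SMI1, of cell wall synthesis (2.60), and SSH1, a channel of protein translocation (2.56, with tags at 2.26 and 2.87). Of these 16 strains, 9 had the same sign at 28 degree and 3 of those were past 1, and 10 had a CDC102 ratio of -1 or less.

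The 12 lowest strains past the size in each tag lacked essential genes apart from CAN1, and all stood at -2.79 or less on the cdc102-1 array. NBP35, of cytosolic iron-sulfur assembly, was at -5.08 with cdc102-1 and -0.43 with CDC102, a difference of -4.65 with tags at -4.95 and -4.36. TYS1, the tyrosyl-tRNA synthetase, was at -5.58 and -1.50 (difference -4.08), with tags far apart at -1.35 and -6.81. UTP8, of ribosome and tRNA maturation, was at -3.08 and 0.98 (difference -4.06, tags -6.27 and -1.85). SCD5, of endocytosis, differed by -4.00 (tags -5.28 and -2.71) and YCS4, of condensin, by -3.98 (tags -5.58 and -2.39). CDC43, of geranylgeranylation, differed by -3.81 (tags -5.02 and -2.61) and SEC31, of the COPII coat, by -3.50 (tags -5.86 and -1.14). PMA1, the plasma membrane proton pump, was at -4.21 and -0.80, a difference of -3.41 with tags at -3.13 and -3.69. ALG2, a mannosyltransferase of N-glycosylation, also differed by -3.41 (tags -2.42 and -4.39). AUR1, of sphingolipid synthesis, differed by -3.18 (tags -3.12 and -3.25) and YTM1, of large ribosomal subunit assembly, by -3.15 (tags -2.91 and -3.39). CAN1, the arginine permease, is not essential and differed by -3.51, with tags at -1.97 and -5.06. In 6 of the 12 (ALG2, CDC43, NBP35, SEC31, TYS1 and YCS4) at least 1 spot with cdc102-1 had a deposited ratio of 0.02 or less, where rounding to 0.01 makes the ratio coarse. Without such ratios YCS4 had no value left, ALG2 was at -1.91 and SEC31 at -1.65, and NBP35, TYS1 and CDC43 were at -4.36, -3.29 and -3.16. The difference at 28 degree had the same sign in 4 of the 12 and was past 1 in 3 of them (CDC43, ALG2 and YTM1). CDC43 and ALG2 were past 1 in each tag there, but the tags of YTM1 had opposite signs (-3.47 and 0.61).

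Deletions in membrane traffic made up the largest block of higher strains among the families of lists examined, in the scaling used here. Their proteins sort membrane proteins and cargo between the endoplasmic reticulum, the Golgi, endosomes, the vacuole and the surface. Over 8 lists with 70 measured strains the median difference was 0.90, against 0.02 over all strains, and the medians of the first and second tag were 0.88 and 0.98. A difference of at least 1 was found for 32 strains higher (45.7%) and 2 lower (2.86%), against 7.77% and 7.92% of all strains. Each tag passed the size in 24 of 68 higher (35.3%) and 0 lower, against 3.32% and 2.39% of all strains, and these 24 were 14.9% of the 161. The tags correlated with r = 0.629 within the group. At 28 degree the same strains had a median of 0.56. The 8 lists were put together after their values were seen, so these counts describe the group and are no independent evidence of its direction. They also depend on the scaling. When both arrays were given the same distribution by quantile normalization, the median was 0.60 and 17 strains were higher (24.3%, against 7.28% of all strains). In each tag 12 of 68 were then higher, against 117 of all 4854 strains (2.41%). By count 2 families then had more higher strains, translation and metabolism with 22 of 264 (8.33%) and essential genes with 18 of 92 (19.6%). All of the 24 stayed above 0 under that scaling, and 12 of them stayed past 1 by the strain mean.

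**Figure D3:**
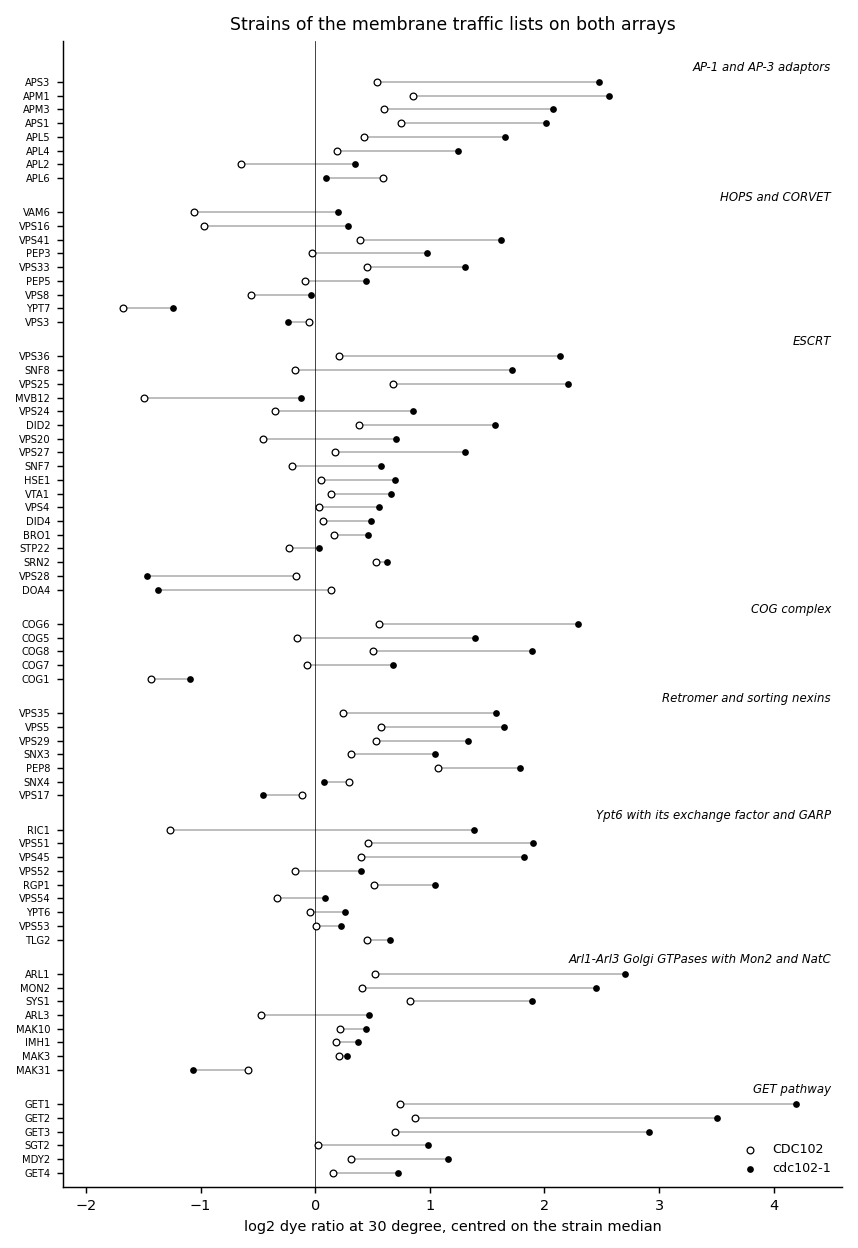
Centred log2 dye ratios at 30 degree of the 70 strains of the membrane traffic lists, with CDC102 as open circles and cdc102-1 as filled circles, 1 row per deletion, grouped by list. In 63 rows the filled circle lies to the right, against 2738 of all 5288 strains with a difference above 0. DOA4, VPS28, MAK31, APL6, VPS17, SNX4 and VPS3 are the 7 in which it lies to the left.

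The GET pathway inserts tail-anchored proteins into the endoplasmic reticulum. All 6 of its deletions were above 0 at both temperatures, against 1599 of all 5288 strains. GET1 and GET2 encode the membrane receptor. Without GET1 the ratio was 4.20 with cdc102-1 and 0.74 with CDC102, a difference of 3.46 with tags at 3.33 and 3.59. Without GET2 it was 3.51 and 0.87, a difference of 2.64 with tags at 2.75 and 2.53. GET3, the ATPase that carries the protein to that receptor, was at 2.91 and 0.70, a difference of 2.21 with tags at 2.40 and 2.02. The upstream factors, which hand the protein to Get3, were higher by less and not past 1. SGT2 differed by 0.96, MDY2 by 0.84 and GET4 by 0.56, with both tags of each above 0. At 28 degree GET1, GET2 and GET3 stood at 2.38, 2.74 and 0.83, so the difference of GET3 was past 1 only at the higher temperature. Quantile normalization left GET2 at 1.65 and GET3 at 1.39.

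The lists of Golgi GTPases and the tethers they recruit had the lowest medians of the traffic lists. The median was 0.59 for the list with Arl1 and Arl3 and 0.53 for the list with Ypt6. By quantile normalization these medians were 0.11 and 0.43. ARL1, a GTPase of the trans-Golgi, was at 2.70 with cdc102-1 and 0.52 with CDC102, a difference of 2.18 with tags at 2.24 and 2.12. MON2, a large Golgi and endosome protein, was at 2.45 and 0.41 (difference 2.04, tags 1.94 and 2.14). SYS1, the Golgi receptor of Arl3, was at 1.89 and 0.83 (difference 1.06, tags 1.05 and 1.08, but 0.06 by quantile normalization). ARL3 itself differed by 0.94, but with tags at 0.13 and 1.76. The NatC acetyltransferase, which modifies Arl3, did not share these values. Its subunits MAK10, MAK3 and MAK31 stood at 0.23, 0.07 and -0.48. RIC1, of the exchange factor for the GTPase Ypt6, differed by 2.65, from 1.39 and -1.27, with tags at 1.35 and 3.96, whereas its partner RGP1 differed by 0.53 and YPT6 by 0.31 with tags of opposite sign. Of the GARP tether, VPS51 was at 1.90 and 0.46 (difference 1.45), and VPS52, VPS54 and VPS53 stood at 0.57, 0.42 and 0.21. VPS45, a regulator of endosomal SNAREs, differed by 1.42 with tags at 1.03 and 1.80. By quantile normalization VPS51 was at 0.80 and VPS45 at 0.83.

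Complexes of retrograde and vacuolar transport were higher in part. In the COG tether of the Golgi, all 5 measured strains were above 0, against 2738 of all 5288. Their median was 1.39, or 0.71 by quantile normalization and 0.85 over spots with a value on both arrays. COG6 was at 2.29 and 0.56 (difference 1.74, tags 1.43 and 2.04) and COG8 at 1.89 and 0.50 (difference 1.39, tags 1.44 and 1.34), while COG1 differed by 0.34. COG5 had a mean of 1.55, but only its second tag was measured on both arrays, at 0.85. Retromer, which returns receptors from endosomes to the Golgi, had VPS35 at 1.33 (tags 1.23 and 1.43), VPS5 at 1.07, VPS29 at 0.80 and PEP8 at 0.71, all above 0 in each tag, with VPS17 at -0.33. By quantile normalization VPS35 was at 0.86 and VPS5 at 0.40, and COG6, COG8 and VPS41 at 1.00, 0.71 and 0.70. The open reading frame of VPS5 overlaps VAM10 by 345 bases, and the VAM10 deletion, which removes part of the same sequence, differed by 1.15. Such pairs did not go together as a set, with the same sign in 11 of 26. HOPS, the tether of vacuole fusion, had VPS41 at 1.62 and 0.39 (difference 1.23, tags 1.26 and 1.20), VAM6 at 1.26 and VPS16 at 1.25. The last 2 of these were near or below -1 with CDC102 (-1.06 and -0.97) and near 0 with cdc102-1.

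The ESCRT complexes, which bud vesicles into the endosome lumen, differed by subcomplex. All 3 subunits of ESCRT-II were past 1 in each tag. VPS36 was at 2.13 with cdc102-1 and 0.21 with CDC102 (difference 1.92, tags 2.34 and 1.51), SNF8 at 1.72 and -0.17 (difference 1.89, tags 1.80 and 1.98) and VPS25 at 2.20 and 0.68 (difference 1.52, tags 1.96 and 1.07). SNF8 was read from 12 spots, and VPS25 was at 0.56 by quantile normalization. ESCRT-0 had VPS27 at 1.14 (tags 1.12 and 1.15) and HSE1 at 0.64. ESCRT-III was less even, with VPS24 at 1.20, VPS20 at 1.16, SNF7 at 0.78 and DID4 at 0.41, the last 2 with tags of opposite sign, and its regulator DID2 was at 1.19 (0.68 by quantile normalization). ESCRT-I went both ways. STP22 and SRN2 stood at 0.26 and 0.09, MVB12 at 1.37 with tags at 2.07 and 0.68, and VPS28 at -1.30 with tags at -1.86 and -0.74. DOA4, the ubiquitin hydrolase that acts at the same step, was the other lower strain, at -1.37 and 0.14 (difference -1.51, tags -2.12 and -0.92).

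The adaptors AP-1 and AP-3, which select cargo at the Golgi, had 6 of 8 strains past 1 (75.0%, against 7.77% of all strains). In each tag 4 of 7 were past 1 (57.1%, against 3.32%). APS3, the small subunit of AP-3, was at 2.48 and 0.54 (difference 1.94, tags 1.86 and 2.02), and APM3, its medium subunit, at 2.07 and 0.60 (difference 1.47, tags 1.45 and 1.49). In AP-1, APM1 was at 2.56 and 0.86 (difference 1.70, tags 1.88 and 1.52), APS1 at 2.01 and 0.75 (difference 1.27, both tags 1.27) and APL4 at 1.24 and 0.19 (difference 1.05). APL5 differed by 1.23 with tags at 2.23 and 0.23. By quantile normalization APS3 was at 1.22, APM1 at 0.72, APM3 at 0.66 and APS1 at 0.26. APL6, of AP-3, had a mean of -0.50, which set different tags against each other, and the 1 tag measured on both arrays stood at 1.80.

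Deletions that alter the cell surface, lipids and glycans were higher in part. Over 7 lists with 72 measured strains the median was 0.31, with 17 higher (23.6%, against 7.77% of all strains) and 2 lower (2.78%, against 7.92%), and 10 of 66 were higher in each tag (15.2%, against 3.32%). By quantile normalization 11 were higher (15.3%, against 7.28%) and 5 of 66 in each tag, against 117 of all 4854 strains (2.41%). The Golgi mannosyltransferases, which extend mannan chains on secreted proteins, lay highest, with a median of 1.14. All 8 strains were above 0, against 2738 of all 5288 strains. VAN1 was at 1.39 with cdc102-1 and -0.21 with CDC102 (difference 1.60, tags 1.99 and 1.20), OCH1 at 0.67 and -0.56 (difference 1.23, tags 1.15 and 1.31) and HOC1 at 1.20 and -0.02 (difference 1.23, tags 1.11 and 1.35). ANP1, whose mean was 1.26, had tags at 2.81 and -0.04. In cell wall synthesis SMI1 was at 2.25 and -0.35 (difference 2.60, tags 2.71 and 2.49) and KRE1, of glucan synthesis, at 1.35 and -0.03 (difference 1.38), but the median of the 16 strains of that list was 0.03. FKS1, a glucan synthase, had tags of opposite sign (-2.23 and 2.56). SPF1, a P-type ATPase of the endoplasmic reticulum, was at 2.54 and 0.59 (difference 1.95, tags 1.99 and 1.91, and 1.23 by quantile normalization). LEM3, a flippase subunit, had the lowest mean in these lists, -2.69, which came from its first tag (-5.36) and not its second (-0.03).

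The remaining surface and membrane lists had medians from -0.05 (amphiphysins and actin patch) to 0.60 (late ergosterol synthesis). The list of protein degradation in the endoplasmic reticulum and the unfolded protein response had a median of 0.59. In it 9 of 10 strains were above 0, and in late ergosterol synthesis 6 of 7, against 2738 of all 5288. Both medians stayed above 0 in every setting run that gave them a value. RVS161, the amphiphysin of endocytosis, was at 2.03 and -0.47 (difference 2.49), with tags at 1.21 and 3.77, and its partner RVS167 differed by 1.07 with tags at 0.74 and 1.40. SAC6, the actin bundler fimbrin, was at 1.06 and -0.43 (difference 1.49, tags 1.41 and 1.60, but 0.76 over spots with a value on both arrays), and CAP2, of the actin capping protein, was at -1.09. NHX1, the endosomal sodium-proton exchanger, differed by 2.14 with tags at 3.32 and 0.97, while the 14 other strains of its list, all of the vacuolar ATPase or its assembly, lay between -0.66 and 0.93. CUE1, an anchor of the degradation machinery in the endoplasmic reticulum, was at 2.27 and 0.77 (difference 1.51, tags 1.38 and 1.63), and SSM4, a ligase of that machinery, differed by 1.04, with 0.50 and 0.59 by quantile normalization. In late ergosterol synthesis ERG2 differed by 1.12 (tags 1.15 and 1.08) and ERG6 by 0.84, and ERG4, with a mean of 2.37, had 1 tag measured on both arrays, at 2.02.

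**Figure D4:**
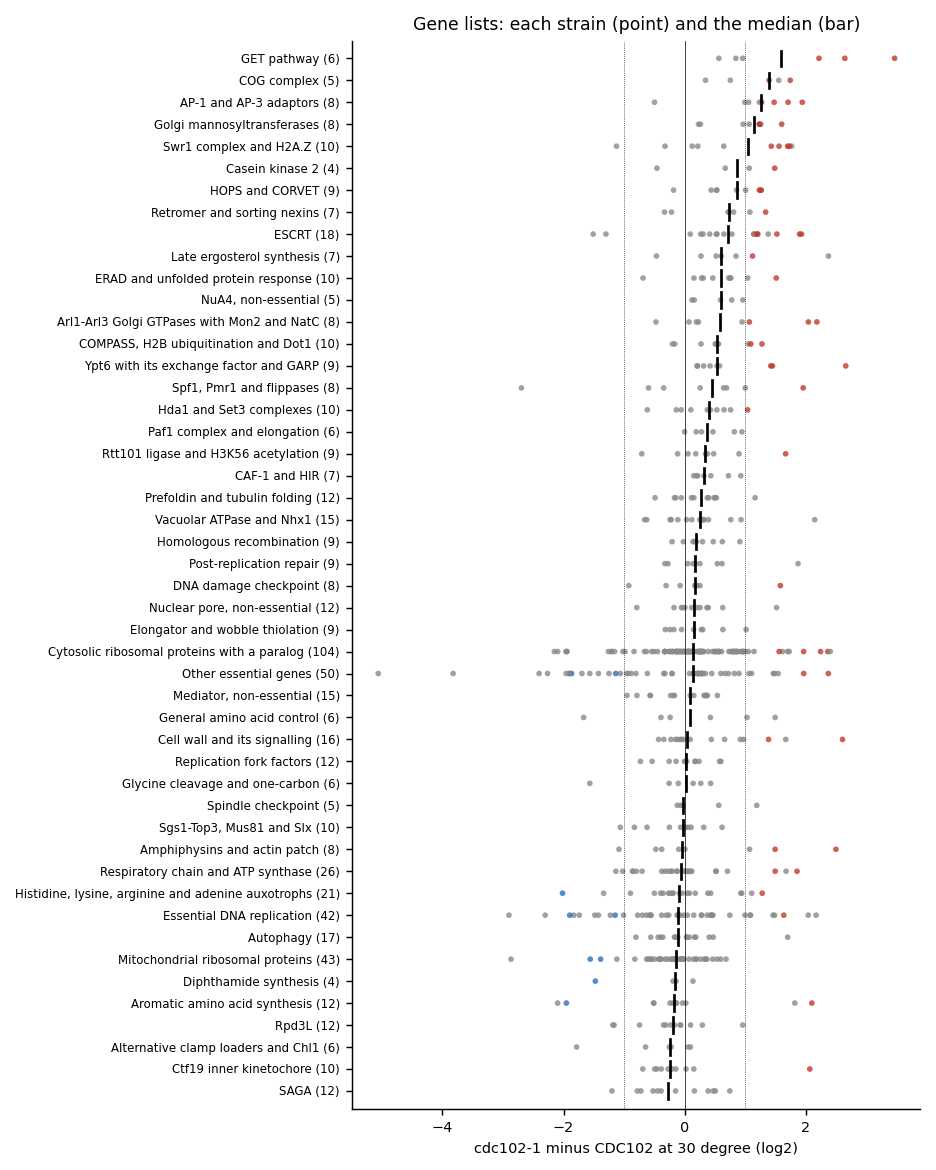
The difference between cdc102-1 and CDC102 at 30 degree (x axis, log2) for each measured strain of 48 gene lists, sorted by the list median (black bar), with the number of measured strains in brackets. Red points passed 1 in each tag, blue points -1 in each tag, and grey points did not. The GET pathway has the highest median (1.58, or 1.06 by quantile normalization) and SAGA the lowest (-0.27), which turned above 0 in 4 of the alternatives.

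Chromatin lists had 96 measured strains and a median of 0.24. Of these, 10 were higher (10.4%, against 7.77% of all strains) and 4 lower (4.17%, against 7.92%), and 8 of 89 were higher in each tag (8.99%, against 3.32%) and 0 lower (against 2.39%). By quantile normalization 3 were higher (3.12%, against 7.28% of all strains), so the share by the strain mean did not stay above the background. In each tag 3 of 89 were higher under that scaling, against 117 of all 4854 strains (2.41%). The Swr1 complex, which exchanges histone H2A for the variant H2A.Z, held 4 of the 8. HTZ1, the gene of H2A.Z, was at 2.62 with cdc102-1 and 0.89 with CDC102 (difference 1.72, tags 1.70 and 1.74). ARP6 was at 2.14 and 0.44 (difference 1.70, tags 1.70 and 1.69), the ATPase SWR1 at 2.09 and 0.54 (difference 1.55, tags 1.42 and 1.68) and VPS71 at 1.81 and 0.38 (difference 1.43, tags 1.61 and 1.25). SWC3 had a mean of 1.76, and its 1 tag measured on both arrays was at 1.36. Other subunits were not high, with YAF9 at 0.64, VPS72 at 0.12 and SWC5 at -0.33, and the mean of SWC7 (-1.13) contrasts with its 1 shared tag (-0.14). At 28 degree HTZ1 and VPS71 were past 1 (1.07 and 1.24), but SWR1 (0.12) and ARP6 (0.30) were not. By quantile normalization HTZ1, ARP6, SWR1 and VPS71 stood at 0.70, 1.02, 0.79 and 0.85 at 30 degree.

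Other histone modifiers were spread on both sides of 0. LGE1 and BRE1, of the ligase that ubiquitinates histone H2B, were at 1.27 (tags 1.44 and 1.10, but 0.47 by quantile normalization) and 1.09 (tags 1.04 and 1.14). HDA2, of a histone deacetylase, differed by 1.04 (tags 1.01 and 1.07, and 0.67 by quantile normalization). MMS22, of the Rtt101 ubiquitin ligase at stalled forks, was at 2.11 and 0.44 (difference 1.66, tags 1.93 and 1.40, and 0.99 by quantile normalization), but its partners MMS1 and RTT101 stood at 0.48 and 0.34 and RTT107 at -0.12. The 5 non-essential NuA4 strains were all above 0 (against 2738 of all 5288), with EAF7 highest at 0.96. The 12 strains of Rpd3L, a histone deacetylase, had a median of -0.20, with RXT2 at -1.19 (-0.69 by quantile normalization) and PHO23 at -1.17, and the 12 of SAGA one of -0.27, with UBP8 at -1.20. The SAGA median turned to 0.13 with the median over spots and to 0.15 over spots with a value on both arrays, and UBP8 was at -0.53 without ratios of 0.02 or less. None of these lower strains was past 1 in each tag.

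Deletions of non-essential genes of DNA replication and repair lay near the median strain, with an SD of 0.58. The essential replication genes described below also had a median near 0 (-0.11), but a wider spread (SD 1.15). The non-essential lists had 54 measured strains with a median of 0.08. Of these, 2 were higher (3.70%, against 7.77% of all strains) and 2 lower (3.70%, against 7.92%), and 1 of 54 was higher in each tag (1.85%, against 3.32%). The strain past 1 in each tag lacked MEC3, a subunit of the checkpoint clamp, at 1.52 and -0.05 (difference 1.58, tags 2.01 and 1.14 over 12 spots), but the other clamp subunits RAD17 and DDC1 stood at 0.25 and -0.08. At 28 degree MEC3 was at -0.41. REV7, of translesion synthesis, had a mean of 1.87 with tags at 3.17 and 0.56, and its partner REV3 was at -0.33. CHL1, a helicase of sister chromatid cohesion, was at -2.14 and -0.36 (difference -1.78, tags -2.69 and -0.88), and SLX5, of a SUMO-targeted ligase, differed by -1.06. The 12 fork factors lay between -0.73 (RAD27, the flap endonuclease) and 0.60 (RRM3, a helicase), with MRC1 at 0.23, TOF1 at 0.03 and CTF4 at -0.26. Homologous recombination had 9 strains with a median of 0.19, and RAD52 was at 0.17 with tags at 0.66 and -0.86.

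The 3 lists of mitotic genes had medians from -0.24 to 0.26. Their 27 strains had a median of -0.02, with 3 higher (11.1%, against 7.77% of all strains) and 0 lower (against 7.92%). NKP2, of the inner kinetochore, was at 2.35 and 0.29 (difference 2.06, tags 2.44 and 1.68), but 7 of the 10 strains of its list were below 0, and its partner NKP1 stood at -0.69. NKP2 overlaps TAD3, an essential gene, by 4 bases, and the TAD3 deletion differed by -1.19. PFD1, of the prefoldin chaperone, differed by 1.16 (tags 1.42 and 0.90, but 0.31 by quantile normalization), and BUB1, of the spindle checkpoint, by 1.19 (tags 1.84 and 0.54). In the list of the spindle checkpoint 2 of 5 strains were above 0, and MAD1, MAD2 and MAD3 lay between -0.13 and -0.02.

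Lists of translation and metabolism had shares near those of all strains. Their 264 strains had a median of -0.01, 25 higher (9.47%, against 7.77%) and 23 lower (8.71%, against 7.92%), and 9 of 247 were higher (3.64%, against 3.32%) and 5 lower (2.02%, against 2.39%) in each tag. Casein kinase 2 had its regulatory subunit CKB2 at 1.82 and 0.34 (difference 1.48, tags 1.33 and 1.64, and 0.92 by quantile normalization), CKB1 at 1.06 (0.68 by quantile normalization) and the catalytic CKA1 and CKA2 at 0.67 and -0.46. Within tryptophan synthesis the members had opposite signs, with TRP2 at -0.23 and -2.33 (difference 2.09, tags 2.86 and 1.33) and TRP4 at -1.93 and 0.03 (difference -1.95, tags -2.05 and -1.85). Histidine synthesis likewise held HIS7 at 1.28 (tags 1.14 and 1.41) and HIS2 at -2.02 (tags -2.52 and -1.52). DPH5, of diphthamide synthesis, was at -0.49 and 0.98 (difference -1.48, tags -1.44 and -1.51), and the other 3 strains of its list lay between -0.19 and 0.13. Among cytosolic ribosomal proteins RPL17A was at 2.39 and 0.03 (difference 2.36, tags 1.07 and 3.65), and RPL14A at -1.48 and 0.67 (difference -2.15, tags -0.56 and -3.75). GCN1, at -1.67, had no tag measured on both arrays.

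Deletions of essential genes had the widest spread of the list families. Their 92 measured strains had an SD of 1.30 and a median of -0.05, and their tags correlated with r = -0.05 over 68 strains. Of the 92, 14 were higher (15.2%, against 7.77% of all strains) and 24 lower (26.1%, against 7.92%), and in each tag 3 of 68 were higher (4.41%, against 3.32%) and 5 lower (7.35%, against 2.39%). On the cdc102-1 array 13.0% of their spots had no value and on the CDC102 array 4.69%. Their median ratio was -0.91 with cdc102-1 and -0.93 with CDC102, below the typical strain on both. The 42 strains of essential DNA replication genes had a median of -0.11, with medians of -0.57 and 0.47 in the first and second tag. Of these, 7 were higher (16.7%, against 7.77% of all strains) and 10 lower (23.8%, against 7.92%). In each tag 1 of 29 was higher (3.45%, against 3.32%) and 2 lower (6.9%, against 2.39%). MCM6, of the Mcm2-7 ring, had the largest difference of that list, -2.90, with 1 tag measured on both arrays, at -2.41. RFC2, of the clamp loader, was at 1.63 (tags 1.96 and 1.31), while RFC4 of the same complex was at -1.90 (tags -1.54 and -2.25), and SLD2 at -1.15 (tags -1.18 and -1.12). Of the other GINS genes, PSF1 and PSF3 had means of 1.48 and 2.03, with the 1 tag measured on both arrays at 1.18 and 0.81. SLD5 was at 0.28, with tags of opposite sign (-1.31 and 1.86).

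The ratio of the PSF2 strain was 0.04 with cdc102-1 and 0.31 with CDC102, a difference of -0.27 with tags at 0.07 and -0.60. The nearest measured strains on either side were JEM1 at -0.78, SMC3 at 0.05 and NET1 at -1.32, and ARG2 at 0.06, YJL070C at -0.59 and UTP18 at 0.23. Of these, JEM1 and YJL070C had agreeing tags. The 43 strains within 50 kb of CDC102 had a median of -0.02. Of these, 1 was higher (2.33%, against 7.77% of all strains) and 7 lower (16.3%, against 7.92%), and in each tag 1 of 42 was higher (2.38%, against 3.32%) and 3 lower (7.14%, against 2.39%). Over whole chromosomes the median lay between -0.01 and 0.21, highest on chromosomes I (0.21, 77 strains) and VI (0.15, 110 strains). In windows of 41 neighbouring strains the median ran from -0.27 to 0.52, highest around LDS1 on chromosome I. Over 26 pairs of overlapping genes the differences of both deletions had the same sign in 11, with r = -0.245 and rho = -0.175. Besides the pairs named above, HEM14 and BUD25, which share 489 bases, stood at -1.69 and 0.20. VPS75 and CWC25, which share 4 bases, stood at -0.71 and 0.88.

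Strains with 6 or more spots per tag were measured most often. Of their 52 strains higher in each tag, 7 were in the traffic lists. These lists, put together after their values were seen, held 21 strains with so many spots. So 7 of 21 stand against 52 of all 792 (6.57%). By quantile normalization all 52 were above 0 and 29 past 1 at 30 degree. The names that follow were chosen after their values were seen. NBP2, an adaptor of stress signalling, was highest but for RPA14 and RVS161, at 2.79 and 0.37 (difference 2.42, tags 2.82 and 2.03). Enzymes of phosphoinositides were INP53 (1.88, tags 1.79 and 1.97), INP51 (1.24, tags 1.44 and 1.04) and SAC1 (1.38, tags 1.16 and 1.60), with IRS4, a regulator of Inp51, at 1.39. Factors of vesicle docking and sorting were VAM7, a vacuolar SNARE (2.30), VPS13 (1.35), PEP7 (1.32), the dynamin-like VPS1 (1.32), RCY1, of membrane recycling (1.40), and GCS1, which activates GTP hydrolysis by Arf (1.74). The mean of VAM7 lay above both of its tags (1.09 and 1.91), and its ratios were 0.23 with cdc102-1 and -2.06 with CDC102. RIM101, the transcription factor of the alkaline pH response, was at 1.62 (tags 1.61 and 1.64) and RIM8, which acts in its activation, at 1.34 (tags 1.35 and 1.33). Other higher strains outside the lists lacked ADH1, an alcohol dehydrogenase (2.07), RPN10, of the proteasome (2.01), MIG1, a repressor of glucose-repressed genes (1.95), CTK3, of a kinase of RNA polymerase II (1.80), HOM6, of threonine and methionine synthesis (1.61), EST2, of telomerase (1.47), SNF4, of the Snf1 kinase (1.43), CBF1 (1.37), LSM1, of messenger RNA decay (1.35), and TOP1, a topoisomerase (1.11). The fatty acid elongases had opposite signs, ELO2 at 2.35 (tags 3.58 and 1.40) and ELO3 at -1.68 (tags -1.68 and -1.71). So did subunits of RNA polymerase I, RPA14 at 3.08 and RPA49 at -1.44 (tags -1.29 and -1.74). At 28 degree these 2 did not have opposite signs, with RPA14 at 0.14 and RPA49 at 1.29. The remaining lower strains lacked SRV2, of actin turnover (-2.39), MUD1, of the U1 particle of splicing (-2.18), ISA1, of iron-sulfur assembly (-1.70), MRPL4 (-1.56), HXT4, a hexose transporter (-1.36), and SIR3, of silencing (-1.27).

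The pair of arrays at 28 degree shares no array with that at 30 degree and had a narrower spread of differences (SD 0.54). There 211 of 5325 strains were higher by at least 1 (3.96%) and 159 lower (2.99%), and in each tag 71 (1.34%) and 46 (0.869%). Over 5288 strains the difference at 30 degree correlated with that at 28 degree with r = 0.165 and rho = 0.221. Both differences were at least 1 in 70 strains (1.32%) and -1 or less in 36 (0.681%). Of 4844 strains, 25 were higher by at least 1 in all 4 tag differences (0.516%), 7 of them in the traffic lists, and 8 were lower (0.165%). The traffic lists, put together after their values were seen, hold 70 of the 5288 strains. By quantile normalization 15 of the 25 and all 8 were past 1 at 30 degree. Beside those above, the higher ones included LTE1, of mitotic exit (1.73 at 30 and 1.42 at 28 degree), SCJ1, a chaperone of the endoplasmic reticulum (1.39 and 1.06), WHI2 (1.48 and 1.22), LSB3, of actin patches (1.36 and 1.18), FTR1, an iron permease (1.08 and 1.38), and UTR1, an NAD kinase (1.37 and 2.00). The lower ones included LIP1, of ceramide synthase (-2.30 and -1.20), IPT1, of the last step of complex sphingolipid synthesis (-1.42 and -1.66), and ETT1 (-1.20 and -1.46).

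**Figure D5:**
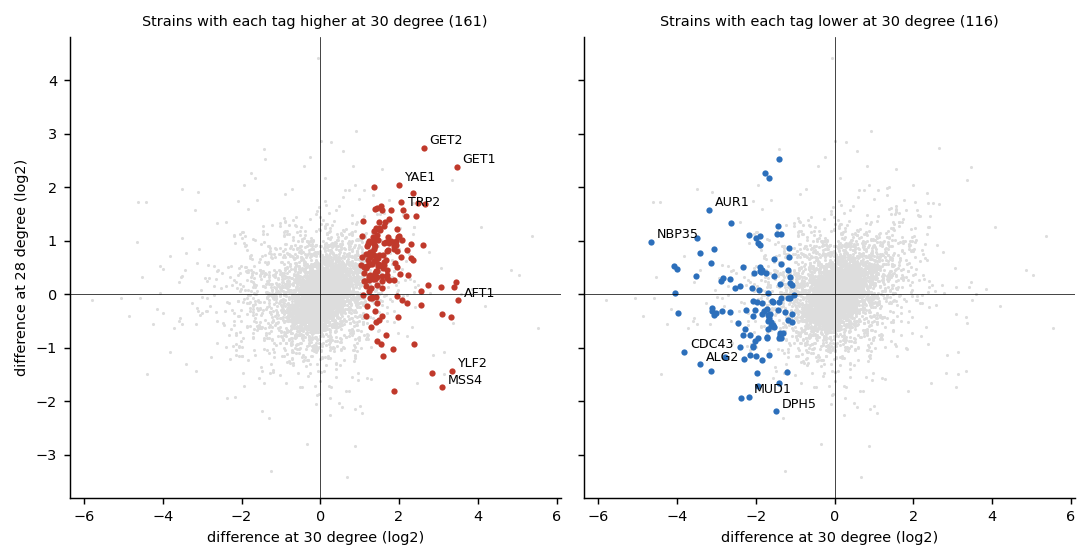
The difference between cdc102-1 and CDC102 at 30 degree (x axis) and at 28 degree (y axis), both log2, with all 5288 strains in grey. On the left the 161 strains higher in each tag at 30 degree are red, 130 of them above 0 at 28 degree; on the right the 116 lower strains are blue, 69 of them below 0.

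Some strains differed most between the temperatures. WRS1, the tryptophanyl-tRNA synthetase, was at 0.68 at 30 degree and -3.41 at 28 degree, with tags that agreed at both. RPS12, a ribosomal protein, was at -0.06 and 4.42, but its tags at 28 degree lay far apart, at 7.46 and 1.38. The first of these came with a CDC102 ratio of -6.47. YLF2, PGI1 and EFB1 were high at 30 degree (3.33, 2.83 and 3.32) and had means below 0 at 28 degree (-1.43, -1.47 and -0.42). NBP35, TYS1 and SEC31, low at 30 degree, had means above 0 at 28 degree (0.98, 0.54 and 1.04). Only YLF2 and TYS1 among these had tags of the same sign at 28 degree. The tags there were 2.63 and -0.67 for NBP35 and -0.88 and 2.97 for SEC31. They were 0.02 and -2.95 for PGI1 and 0.07 and -0.91 for EFB1. Over 4844 strains, 120 had a difference larger at 30 degree by at least 1 in each tag and 134 one smaller by as much. With 1 array in each of the 4 groups, these gaps between temperatures have no test.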

How the data were processed

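Per the labels, tags were amplified from genomic DNA (the molecule field says RNA), labelled with Cy5 (no Nat) or Cy3 (Nat), hybridised without a dye swap to a Hopkins tag array and read with GenePix 5.1. The authors deposited log2 ratios of both dyes for 22575 spots, rounded as ratios to 0.01; the numerator, any background correction and any balancing of the dyes are not stated in these sources. Genes came from the platform annotation (18794 spots with 1 gene symbol, 0 with several, 3781 with none). Both tags of a strain lay 10971 spot numbers apart; which is the uptag is not known.

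Stand-in ratios of 1000000 were dropped (2 named spots with cdc102-1 and 3 with CDC102 at 30 degree), spots were averaged per strain, and each array was centred on the median of the strains measured on both arrays of its temperature (removing -0.27 and -0.20 at 30 degree). Gene positions and synonyms came from the reference table (assembly R64, 5321 strains matched), which is not the array's own build, so no coordinates are printed. Of 696 gene names in the 48 lists, 682 were found on the array; the rest were not analysed here.

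With 1 array per group there was no test and no error from replicates; differences of at least 1 were counted. The strains named were the 16 highest and 12 lowest past 1 in each tag and over 100 kb from CDC102 (2 higher and 3 lower strains within it were left out), up to 4 members per list with further members past 1 in each tag, PSF2 with 3 neighbours on each side, 5 strains with opposite tags, 5 in each direction between temperatures, window centres and overlapping pairs; further members of a described complex were named after their values were seen. The members and the lists were chosen with earlier results of these data known, and the grouping of lists into families was made after their values were seen. The steps were tested on simulated data. Alternatives changed the centring, the scaling, the averaging of spots, the tags, the size, and the strains or spots included. Python 3.11.15, numpy 2.4.6, pandas 2.3.3 and scipy 1.17.1 were used, and figures were drawn with matplotlib 3.10.9.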

Additional observations from a re-analysis of the deposited data

Results flagged for a closer look

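MSS4 and AUR1 were past 1 in opposite directions at the 2 temperatures in each tag. The MSS4 deletion differed by 3.09 at 30 degree and by -1.74 at 28 degree, with tags at -1.71 and -1.76 there. The AUR1 deletion differed by -3.18 at 30 degree and by 1.58 at 28 degree, with tags at 1.91 and 1.24 there. Both genes are essential, and with 1 array in each group the difference between temperatures was not tested.

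Spots with no gene name entered no comparison, and pairs of them passed the size about as often as named strains. Of 568 pairs of such spots at the same spacing as the tags of a strain, 18 were higher by at least 1 in each spot (3.17%) and 12 lower (2.11%), against 3.32% and 2.39% of named strains. Whether these spots are tags of strains is not told by the annotation used here.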

How the results depend on the processing

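No paired analysis was possible because each group has 1 array, and for the same reason no array could be left out. Of the counts and tag correlations recomputed, 49 stayed close to the reported value and 12 moved, the counts by over 1.5 times. A size of 0.8 gave 257 strains higher in each tag, and a size of 1.5 gave 178 higher and 236 lower, and in each tag 48 and 54, so that higher strains no longer outnumbered lower ones. Strains whose tags differed by less than 1 gave 158 higher and 90 lower. Strains with at least 6 spots per tag gave 79 higher and 20 lower, 52 and 8 in each tag, and a tag correlation of 0.455. These last settings keep fewer strains by construction. Signs turned for ILT1 (-0.14), MRPL32 (0.13), PSP2 (0.29), RPN2 (1.01) and SDH1 (-0.05) with the first tag only, for ANP1 (-0.05), GCN2 (-0.14), MRPL27 (0.45) and RRS1 (0.29) with the second tag only, and for PSP2 (0.67) and RRS1 (0.27) without ratios of 0.02 or less. Of 142 named strains past 1, 40 were no longer past it by quantile normalization and 23 after the arrays were given an equal median absolute deviation; the cause was not tested. In every setting run the medians of the 8 traffic lists stayed above 0. One alternative, only spots with a value on both arrays at 30 degree, was chosen after seeing the data. Without intensities, the signal over background behind these values is unknown.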
